A study of Mus musculus with 6 samples.

Results

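Luminal epithelial keratins and junction genes were followed across cultures of mouse mammary fibroblasts, as a reading of how much epithelial RNA each culture held. The 8 genes were taken by symbol from a table of 12023 genes. They were the keratins Krt7, Krt8, Krt18 and Krt19, the adhesion genes Epcam and Cdh1, the tight junction gene Cldn4 and the transcription factor gene Elf3, and all 8 were present and passed the filter on low counts. The cells were grown from the fat pads of untreated, healthy female mice, 8 to 12 weeks old, of the inbred strains BALB/c and C57BL/6, and each strain gave 3 biological replicates. No transgene, tumour or treatment is named in the labels for either strain. The tissue was digested with collagenases, the cells were plated on collagen-coated plastic, and after 4 days in culture the 3′ ends of polyadenylated RNA were counted. The design text mentions a magnetic separation, and says nothing of what it removed or kept.

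The mammary duct is a bilayer, with luminal cells facing the lumen and basal, or myoepithelial, cells around them. Luminal and other simple epithelial cells build their intermediate filaments from pairs of a type II keratin (Krt7 or Krt8) and a type I keratin (Krt18 or Krt19), and unpaired keratin protein is degraded. Neighbouring cells are held together by E-cadherin, encoded by Cdh1, and by the adhesion molecule that Epcam encodes, and claudins such as Cldn4 seal the space between them. Fibroblasts rest instead on vimentin filaments and on matrix, and the Snail and Zeb repressors, which are active in mesenchymal cells, bind short sequences called E-boxes in the promoters of epithelial genes, Cdh1 being the textbook case.

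The stretches just before the transcription starts are shown for the 3 genes whose stretches free of annotated exons were longest. Each of these holds an E-box, and so does the shorter stretch of Elf3, which is not shown. Any part of these sequences in the levels of the genes was not tested. The sequences are those of RefSeq for GRCm38.p6, the C57BL/6J reference, and BALB/c alleles may differ. For Krt18 the 36 bases nearest the start were left off, as they lie in an annotated exon. Capitals mark the E-box CACCTG or its reverse complement CAGGTG.
Epcam, chr17:87635729-87635978, plus strand: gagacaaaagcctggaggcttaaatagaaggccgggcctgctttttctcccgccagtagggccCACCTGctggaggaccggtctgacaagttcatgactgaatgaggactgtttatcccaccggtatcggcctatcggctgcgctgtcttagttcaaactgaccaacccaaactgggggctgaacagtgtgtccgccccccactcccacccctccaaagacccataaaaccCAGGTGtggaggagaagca
Cldn4, chr5:134946935-134947184, minus strand: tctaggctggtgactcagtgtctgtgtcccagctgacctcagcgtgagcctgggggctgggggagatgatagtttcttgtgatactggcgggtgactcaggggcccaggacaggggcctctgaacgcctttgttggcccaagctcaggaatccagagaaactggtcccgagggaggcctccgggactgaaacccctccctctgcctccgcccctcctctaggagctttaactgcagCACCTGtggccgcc
Krt18, chr15:102027966-102028179, plus strand: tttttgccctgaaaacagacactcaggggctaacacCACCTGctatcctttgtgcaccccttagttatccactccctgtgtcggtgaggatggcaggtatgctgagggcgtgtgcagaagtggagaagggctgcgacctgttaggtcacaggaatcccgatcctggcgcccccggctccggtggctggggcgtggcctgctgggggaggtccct
The table of starts held 6 of the 8 genes, Krt7, Krt8, Krt18, Epcam, Cldn4 and Elf3. Within 250 bases before the start, 6 of the 6 had the E-box on one strand or the other, while 17.2% of all 32851 starts did. These searches took in annotated exons. In Krt7 and Krt8 the match lay at 44 to 39 and at 111 to 106 bases before the start. Their stretches free of annotated exons leave off the nearest 211 and 140 bases, and hold no E-box. In Epcam it occurred at 187 to 182 and again at 19 to 14 bases before the start, in Cldn4 at 14 to 9 bases and in Krt18 at 214 to 209 bases. In Elf3 it lay at 140 to 135 bases before the start. That is inside its exon-free stretch of 154 bases, which leaves off the nearest 96. The AP-1 site TGANTCA, searched on both strands, occurred in Cldn4 alone of the 6 and before 6.75% of all starts. The Grainyhead palindrome AACCGGTT, the ETS site CCGGAAGT and the TATA box TATAAA had no match in the 6 windows, and occurred before 0.116%, 2.88% and 12.4% of all starts. These matches describe the letters of the windows and not the binding of a factor.

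Total counts ran from 1035485 to 4665896 per library, so that 3 counts corresponded to 0.612 to 2.90 CPM (counts brought to a common library total after TMM scaling, used throughout). Values of a strain are listed in the order of its replicates 1, 2 and 3. C57BL/6 replicate 1 stood apart from the other libraries. There the 2163 tested genes with the lowest GC content in their transcripts, 31.2% to 47.0%, had a median log2 CPM of -1.34 relative to the mean of the 6 libraries, and the 2162 with the highest, 55.8% to 72.8%, had 0.60. In the other 5 libraries these medians lay between 0.17 and 0.41 for the first set and between -0.19 and -0.00 for the second. The 2161 tested genes with the longest transcripts, 4330 bases or more, had a median of -0.30 in C57BL/6 replicate 1. For these genes the median was 0.04 to 0.14 in the other 5 libraries. Strain differences of the 8 genes are therefore given with this library and without it. Whether the replicates of a strain came from separate animals or pools is not stated beyond the word biological, so the spread within a strain is the spread between these libraries.

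The 8 genes together made up 0.153% of all counts in BALB/c replicate 1 (95% Wilson interval 0.147% to 0.159%), 0.935% in replicate 2 (0.924% to 0.947%) and 0.712% in replicate 3 (0.696% to 0.729%). In C57BL/6 they made up 1.23% in replicate 1 (1.21% to 1.24%), 0.256% in replicate 2 (0.248% to 0.265%) and 0.830% in replicate 3 (0.822% to 0.838%). Each strain thus had 1 library with few epithelial counts and 2 libraries with several times more. On the CPM scale the summed level was 1487, 9083 and 7137 in the BALB/c libraries and 14246, 2596 and 7903 in the C57BL/6 libraries. From lowest to highest the order was BALB/c 1, C57BL/6 2, BALB/c 3, C57BL/6 3, BALB/c 2 and C57BL/6 1, and the exact Poisson 95% intervals of neighbours in this order did not overlap. Those intervals cover counting error only, and each level rests on 1 library. Fewer epithelial cells and less RNA per epithelial cell cannot be told apart in such bulk libraries.

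**Figure D1:**
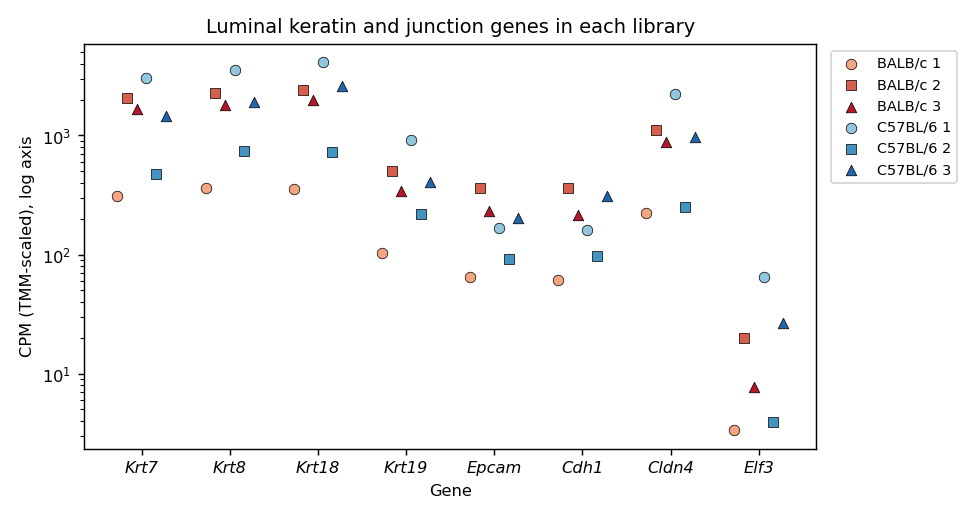
Level of each of the 8 genes (x axis) in CPM on a log axis, with 1 point per library, BALB/c in reds and C57BL/6 in blues. In every gene the 2 lowest points are BALB/c replicate 1 and C57BL/6 replicate 2, and the strains overlap.

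The type II keratins, which supply one partner of each filament pair, had the same order of libraries at the bottom and at the top. Krt8, the partner of Krt18 in simple epithelia, was at 366, 2266 and 1807 CPM in the BALB/c libraries and at 3534, 736 and 1898 CPM in the C57BL/6 libraries. Krt7, typical of ducts and glands, was at 312, 2048 and 1680 CPM in the BALB/c libraries and at 3034, 475 and 1470 CPM in the C57BL/6 libraries. In both genes BALB/c replicate 1 was the lowest library and C57BL/6 replicate 1 the highest, with a ratio between them of 9.67 for Krt8 and 9.74 for Krt7. Krt8 lies on chromosome 15, 101996698 to 102004482, minus strand, and Krt7 on chromosome 15, 101411043 to 101430313, plus strand (GRCm38, GENCODE vM21). Both are protein-coding, and 1 exon partner on the other strand overlaps each, Gm36026 for Krt8 and Gm671 for Krt7. No label says whether counting used the strand, so reads of such partners cannot be told apart. The last 500 bases of Krt7 also matched 2 other genes, Chpt1 and Gm21781, over at most 62 bases at 95% identity or more, so its counts carry that uncertainty.

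The type I keratins followed. Krt18 was at 357, 2411 and 1971 CPM in the BALB/c libraries and at 4112, 722 and 2614 CPM in the C57BL/6 libraries. Krt19, the smallest keratin, which lacks most of the tail domain, was at 102, 503 and 342 CPM in the BALB/c libraries and at 924, 218 and 405 CPM in the C57BL/6 libraries. Again BALB/c replicate 1 and C57BL/6 replicate 2 were low, and the strains overlapped in both genes. Krt18 lies on chromosome 15, 102028180 to 102032027, plus strand, beside Krt8. Krt19 lies on chromosome 11, 100140810 to 100148665, minus strand. No transcript of another gene matched the 3′ end within the same limits for Krt8, Krt18 or Krt19.

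Within a library the keratins kept similar proportions. Krt8 took 24.0% to 28.4% of the summed counts of the 8 genes over the 6 libraries, and Krt7 took 18.3% to 23.5%. Krt18 took 24.0% to 33.1%, with the highest share in C57BL/6 replicate 3, and Krt19 took 4.79% to 8.40%, with the highest share in C57BL/6 replicate 2. The summed level differed 9.58-fold between libraries, and the keratin shares moved far less. The keratins make up most of that sum, so their shares are bounded and the contrast is partly fixed in advance.

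Epcam and Cdh1, which hold epithelial cells to each other, shared the 2 low libraries with the keratins but not the highest one. Epcam was at 64.7, 364 and 233 CPM in the BALB/c libraries and at 168, 91.4 and 202 CPM in the C57BL/6 libraries. Cdh1 was at 60.7, 360 and 217 CPM in the BALB/c libraries and at 161, 96.9 and 308 CPM in the C57BL/6 libraries. Both genes were highest in BALB/c replicate 2, and C57BL/6 replicate 1 held the fourth highest level of each. Of the counts of Epcam, Cdh1 and the 4 keratins, Epcam and Cdh1 made up 2.76% in C57BL/6 replicate 1 (95% Wilson interval 2.51% to 3.03%). In the other 5 libraries this share was 7.20% to 9.94%, and the lowest bound of their intervals was 6.60%. Epcam lies on chromosome 17, 87635979 to 87651129, plus strand, and Cdh1 on chromosome 8, 106603351 to 106670246, plus strand. No exon of another gene overlapped either, and no near-identical 3′ end was found for them.

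C57BL/6 replicate 1 was the library in which counts varied most with GC content, and this was set beside the low share of Epcam and Cdh1. The longest protein-coding transcript held 50.7% GC in Cdh1 and 52.8% in Epcam. It held 56.4% in Krt18, 57.1% in Krt8 and 57.6% in Krt19, and 52.3% in Krt7, below Epcam. Other protein-coding transcripts differed, with 56.5% in the other of Krt7, 53.0% in the other of Cdh1 and 49.3% to 68.8% over the 4 of Epcam. The longest protein-coding transcript had 4430 bases in Cdh1 and 2040 in Epcam, against 1437 to 4094 in the keratins. The part of GC content or transcript length in the low share was not tested. The catenins that bind E-cadherin inside the cell were also low in that library. Ctnnb1, beta-catenin, was at 47.4 CPM there against 319 to 453 CPM in the other 5 libraries, and Ctnna1, alpha-catenin, at 179 CPM against 281 to 427 CPM. Both catenins are also made by fibroblasts.

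**Figure D2:**
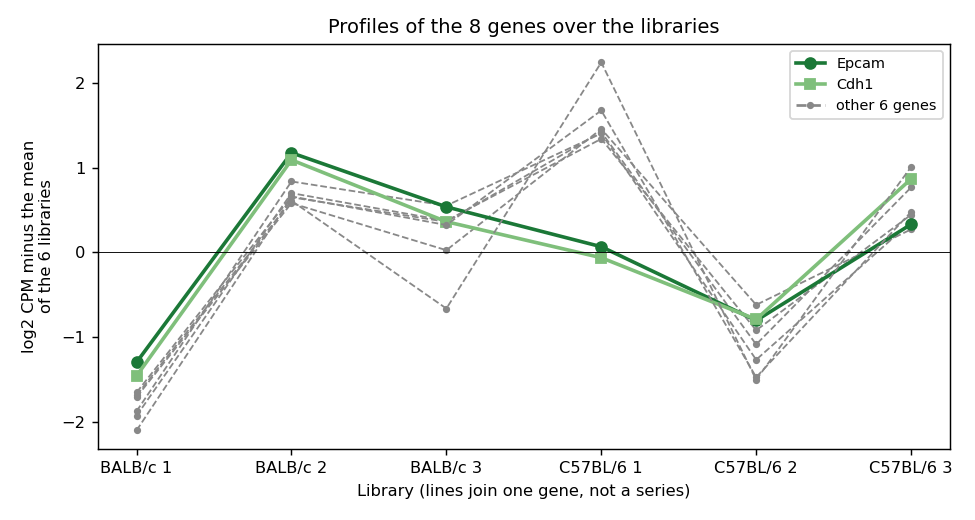
log2 CPM of each gene minus its mean over the 6 libraries (y axis) in each library (x axis), with Epcam and Cdh1 in green and the other 6 genes in grey. In C57BL/6 replicate 1 Epcam and Cdh1 lie at 0.07 and -0.06, and the other 6 genes lie at 1.34 to 2.24.

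**Figure D3:**
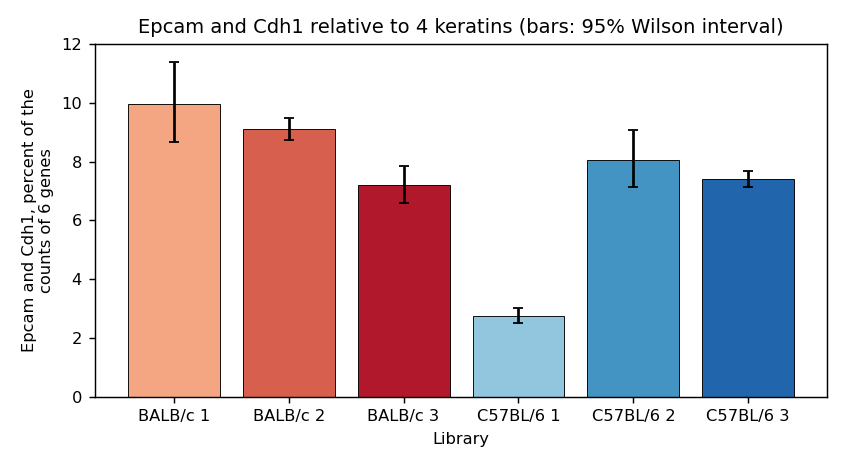
Counts of Epcam and Cdh1 as a percent of the counts of Epcam, Cdh1, Krt7, Krt8, Krt18 and Krt19 (y axis) in each library (x axis), with 95% Wilson intervals as bars. C57BL/6 replicate 1 stands at 2.76% and the other 5 libraries at 7.20% to 9.94%.

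Cldn4, a claudin of tight junctions, went with the keratins in C57BL/6 replicate 1. It was at 223, 1112 and 880 CPM in the BALB/c libraries and at 2249, 252 and 979 CPM in the C57BL/6 libraries, a ratio of 10.1 between the highest and the lowest library. Elf3, an epithelial factor of the ETS family, was the gene with the fewest counts, between 5 and 131 per library. It was at 3.34, 20.0 and 7.74 CPM in the BALB/c libraries and at 64.2, 3.91 and 26.7 CPM in the C57BL/6 libraries, a ratio of 19.2 between the highest and the lowest library. With 5 counts each in BALB/c replicate 1 and C57BL/6 replicate 2 and 8 in BALB/c replicate 3, the order of these 3 libraries was not resolved for Elf3. Cldn4 lies on chromosome 5, 134945119 to 134946934, minus strand. Elf3 lies on chromosome 1, 135253575 to 135258568, minus strand, where exons of Gm26642 on the other strand overlap it.

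Between the strains, 0 of the 8 genes passed an adjusted p of 0.05 in edgeR's quasi-likelihood test over all tested genes, and 0 had an unadjusted p under 0.05. Over all 8752 tested genes 18, or 0.206%, passed, and 3.86% had an unadjusted p under 0.05. A count of 0 of 8 is near both background shares. DESeq2 also called 0 of the 8. The strains overlapped in all 8 genes and in all but 11.4% of all tested genes, so this overlap does not set the 8 apart. The median log2 difference of the 8 genes, BALB/c minus C57BL/6, was -0.56, beside 0.01 over all tested genes, and 6 of the 8 were negative. Without C57BL/6 replicate 1 the median was 0.11 and 2 of the 8 were negative, and without BALB/c replicate 1 it was -0.10.

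The interval of each difference was wide. Krt8 had 1479 ± 992 CPM in BALB/c, against 2056 ± 1405 CPM in C57BL/6 (SD, n = 3 each). Its log2 difference was -0.47 ± 0.74 (SE) with a 95% interval of -2.21 to 1.26. Krt18 had 1580 ± 1082 CPM in BALB/c, against 2483 ± 1699 CPM in C57BL/6, and a log2 difference of -0.65 ± 0.79 with an interval of -2.50 to 1.19. Krt7 had a log2 difference of -0.30 ± 0.80 and Krt19 one of -0.71 ± 0.68. Without C57BL/6 replicate 1 the log2 difference was 0.47 for Krt7, 0.17 for Krt8, 0.0131 for Krt19 and -0.08 for Krt18, so that 3 of the 4 signs turned. With all 6 libraries the keratin intervals admitted BALB/c levels from 0.177 to 2.99 times those of C57BL/6, so a difference of either sign could not be told from none.

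Epcam had 221 ± 150 CPM in BALB/c, against 154 ± 56.6 CPM in C57BL/6 (SD, n = 3 each), and a log2 difference of 0.52 ± 0.59 (SE) with a 95% interval of -0.88 to 1.91. Cdh1 had 213 ± 150 CPM in BALB/c, against 189 ± 108 CPM in C57BL/6, and a log2 difference of 0.17 ± 0.66 with an interval of -1.37 to 1.71. Cldn4 had a log2 difference of -0.65 ± 0.82, and Elf3, at 10.4 ± 8.66 CPM in BALB/c, against 31.6 ± 30.4 CPM in C57BL/6, had one of -1.53 ± 0.96 with an interval of -3.78 to 0.71. Without C57BL/6 replicate 1 the log2 difference was 0.58 for Epcam, 0.06 for Cdh1, -0.59 for Elf3 and 0.25 for Cldn4, whose sign turned. With all 6 libraries the edgeR adjusted p was 0.954 for Krt8, Krt18, Krt19, Epcam, Cldn4 and Elf3, 0.964 for Krt7 and 0.973 for Cdh1.

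**Figure D4:**
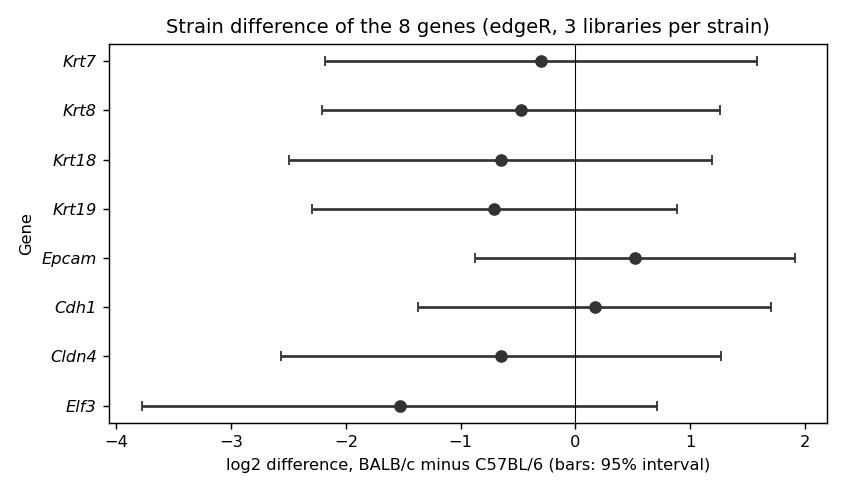
log2 difference of each gene, BALB/c minus C57BL/6 (x axis), from edgeR with 3 libraries per strain, with 95% intervals as bars. Each interval includes 0, and those of Epcam and Cdh1 centre above 0 where the other 6 centre below.

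Other epithelial genes were read against the same libraries. Having BALB/c replicate 1 and C57BL/6 replicate 2 as the 2 lowest libraries, a pattern chosen after the values were seen, was found in 15.3% of all tested genes. All 8 genes had it, which follows in part from naming these libraries by the sum of the 8. Of 14 tested tight junction genes 9 had it, and 0 passed between the strains. Cldn3 was at 71.4, 461 and 327 CPM in the BALB/c libraries and at 1033, 123 and 447 CPM in the C57BL/6 libraries, and Cldn7 at 50.7, 301 and 224 CPM and at 529, 58.6 and 253 CPM. These claudins, like Cldn4, were highest in C57BL/6 replicate 1, which was the highest library in 35.2% of all tested genes and in 6 of the 8. Of 12 tested adherens junction and desmosome genes 4 had the pattern, Pkp1, Pkp3, Perp and Nectin4, and 0 passed between the strains. The summed level of this list was lowest in C57BL/6 replicate 1, at 660 CPM.

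Among 16 tested epithelial surface and secreted genes 11 had the pattern and 0 passed between the strains. Lcn2, an iron-carrier-binding lipocalin, was at 131, 1097 and 772 CPM in the BALB/c libraries and at 4286, 292 and 1986 CPM in the C57BL/6 libraries. Wfdc2, a secreted protein with whey acidic protein domains, was at 177, 1326 and 867 CPM and at 911, 143 and 651 CPM. Lcn2 thus peaked in C57BL/6 replicate 1 as the keratins did, while Wfdc2 was highest in BALB/c replicate 2 as Epcam was. Of the 5 epithelial transcription and splicing factors that could be tested, from a list of 20, Grhl2, Klf5 and Gata3 had the pattern. Among the 5, 0 passed between the strains. For Klf5 the margin was small, with BALB/c replicate 2 only slightly above C57BL/6 replicate 2. Grhl2 rested on 4 counts in BALB/c replicate 1, 5 in C57BL/6 replicate 2 and 6 in C57BL/6 replicate 1. Gata3, a regulator of luminal identity, was at 26.7, 88.4 and 91.0 CPM in the BALB/c libraries and at 107, 22.7 and 95.5 CPM in the C57BL/6 libraries, and Klf5 at 23.3, 26.8 and 67.7 CPM and at 101, 25.0 and 62.8 CPM. The median log2 difference was -0.17 for the tight junction list, 0.03 for the adherens junction and desmosome list, -0.12 for the surface and secreted list and 0.51 for the factors.

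Basal epithelial genes went with the luminal ones. Of 10 tested basal genes 10 had the same 2 lowest libraries and 0 passed between the strains, with a median log2 difference of -0.21. Krt17, a keratin of basal and activated epithelium, was at 303, 1791 and 1331 CPM in the BALB/c libraries and at 2771, 334 and 1421 CPM in the C57BL/6 libraries. Sfn, which encodes 14-3-3 sigma, was at 137, 863 and 715 CPM and at 1163, 206 and 674 CPM. Krt14 was at 96.1, 506 and 390 CPM and at 958, 170 and 592 CPM. Krt5 was at 34.7, 45.1 and 48.4 CPM and at 39.7, 10.2 and 45.1 CPM, so BALB/c replicate 1 lay only slightly below C57BL/6 replicate 1. Krt15 and Trp63 were not in the table. Keratins of both layers thus had the same 2 lowest libraries, by a small margin for Krt5 in BALB/c replicate 1.

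Fibroblast markers showed where the cultures stood against their label. The 14 markers in the table summed to 14721, 7448 and 12087 CPM in the BALB/c libraries and to 3158, 16219 and 8660 CPM in the C57BL/6 libraries. Vim, the vimentin gene, was at 4348, 2623 and 3679 CPM in the BALB/c libraries and at 801, 3858 and 2742 CPM in the C57BL/6 libraries, and Fn1, fibronectin, at 2871, 3016 and 3879 CPM and at 704, 2940 and 2588 CPM. The 2 libraries lowest in the 8 epithelial genes were the 2 highest in summed fibroblast markers, and C57BL/6 replicate 1 was the highest in the first and the lowest in the second. CPM are shares of one total, and counts in C57BL/6 replicate 1 varied with GC content. The part of each in this opposition was not tested. Of the 12 tested markers 0 passed between the strains, with a median log2 difference of -0.03. Dpt, a dermatopontin gene of fibroblasts in tissue, had 1 to 8 counts per library.

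Repressors of epithelial genes were read in the same libraries. Of 5 tested repressors 0 passed between the strains, with a median log2 difference of 0.18. Of these 5, 3 (Zeb1, Snai2 and Twist1) were highest in the 2 libraries that were low in the keratins. This order was chosen after the values were seen and was found in 16% of all tested genes. Each of the 3 was lowest in C57BL/6 replicate 1, where counts varied most with GC content, and the part of GC content was not tested. Zeb1 was at 22.0, 6.44 and 9.68 CPM in the BALB/c libraries and at 0.764, 20.3 and 12.0 CPM in the C57BL/6 libraries. Snai2, which encodes Slug, was at 69.4, 12.2 and 27.1 CPM and at 0.764, 43.8 and 10.2 CPM. Zeb1 and Snai2 rested on 1 count each in C57BL/6 replicate 1. Twist1 was at 102, 46.9 and 58.1 CPM in the BALB/c libraries and at 20.6, 90.7 and 51.6 CPM in the C57BL/6 libraries. Zeb2, with too few counts to be tested, had the same 2 highest libraries at 6.67 and 5.47 CPM and was at 0 to 2.04 CPM in the other 4. Snai1, at 93.4, 140 and 172 CPM in the BALB/c libraries and at 189, 112 and 163 CPM in the C57BL/6 libraries, was instead lowest in those 2 libraries, and Twist2 was highest in C57BL/6 replicate 3. Fibroblasts make these repressors, and 9 of the 12 tested fibroblast markers had the same 2 highest libraries.

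Markers of other cell types that make keratins or could enter the culture were read in the same libraries. The mesothelial, Schwann cell and adipocyte sums shared the 2 lowest libraries with the 8 genes, the adipocyte sum by a small margin. Of 9 mesothelial markers, cells that also carry Krt8, Krt18 and Krt19, 3 were in the table, and they summed to 4.00, 35.1 and 31.9 CPM in the BALB/c libraries and to 22.9, 8.60 and 24.1 CPM in the C57BL/6 libraries. Msln, mesothelin, was at 0.667, 15.0 and 20.3 CPM in the BALB/c libraries and at 19.9, 3.91 and 14.1 CPM in the C57BL/6 libraries, and Bnc1 at 3.34, 19.7 and 11.6 CPM and at 3.06, 4.69 and 8.57 CPM. Upk1b, the third, had 0 counts in 4 libraries, 1 count in BALB/c replicate 2 and 7 counts in C57BL/6 replicate 3. The 8 leukocyte markers in the table, of 10, summed to 464 to 704 CPM in the BALB/c libraries and 607 to 1049 CPM in the C57BL/6 libraries, mostly Lyz2 at 340 to 555 CPM and 445 to 717 CPM, with Tyrobp at 35.8 to 44.7 CPM and 35.2 to 125 CPM. Ptprc, the common leukocyte antigen, stayed at or below 3.91 CPM. The 8 endothelial markers of 10 summed to 41.5 to 81.3 CPM and 58.6 to 101 CPM, with Egfl7 at 13.2 to 25.3 CPM and 15.1 to 29.0 CPM and Pecam1 at 4.65 to 10.01 CPM and 9.39 to 29.8 CPM.

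The 3 adipocyte markers in the table, of 10, summed to 49.4, 65.5 and 64.8 CPM in the BALB/c libraries. In the C57BL/6 libraries they summed to 61.9, 61.7 and 77.9 CPM, so replicate 2 lay only slightly below replicate 1. Fabp4 was at 36.0 to 53.2 CPM in BALB/c and 46.9 to 67.1 CPM in C57BL/6. Pparg was at 2.90 to 8.23 CPM and 6.53 to 10.7 CPM. The 10 pericyte and smooth muscle markers, some of which basal epithelium and cultured fibroblasts also make, summed to 2749 to 3605 CPM and 3820 to 6252 CPM. Tagln was at 2268 to 3068 CPM and 2959 to 5417 CPM, and Cnn1 at 154 to 211 CPM and 355 to 496 CPM. The 6 Schwann cell markers in the table, of 8, summed to 32.0, 93.1 and 122 CPM in the BALB/c libraries and to 216, 64.1 and 179 CPM in the C57BL/6 libraries, most of it Sox10, which mammary epithelium also makes, at 14.0, 54.8 and 94.8 CPM in the BALB/c libraries and 176, 46.1 and 142 CPM in the C57BL/6 libraries. S100b, a marker of Schwann cells, stayed at or below 4.08 CPM, and Erbb3 was at 6.25 to 28.3 CPM. No marker of these 6 lists passed between the strains, and their median log2 differences were 0.47 for mesothelial, -0.91 for leukocyte, -0.50 for endothelial, -0.23 for adipocyte, -0.64 for pericyte and smooth muscle and -1.004 for Schwann cell markers.

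**Figure D5:**
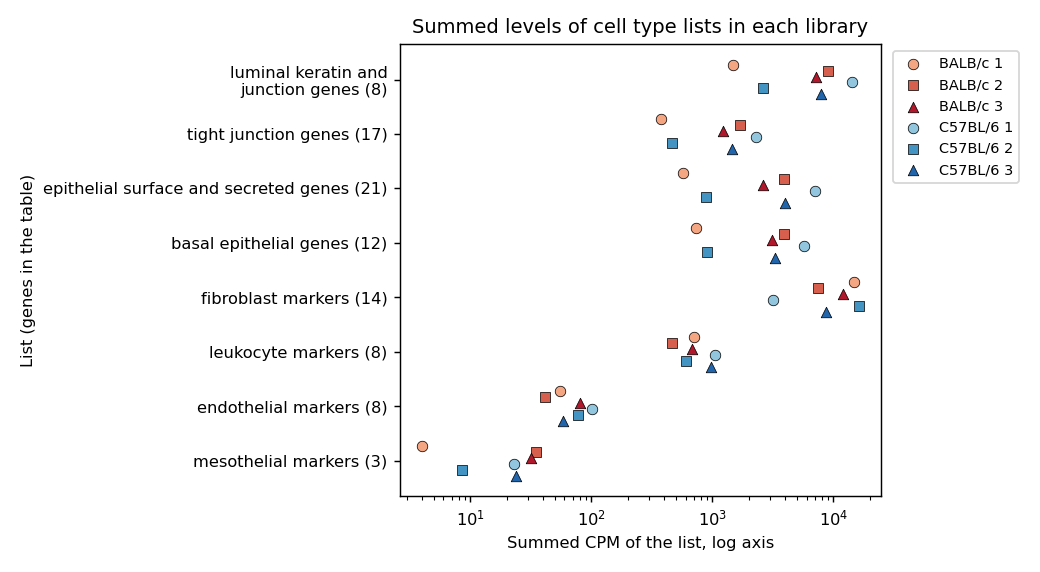
Summed CPM on a log axis (x axis) of each list of genes (y axis, with the number of its genes in the table), with 1 point per library. The 8 genes and the tight junction, surface and secreted, basal and mesothelial lists have BALB/c replicate 1 and C57BL/6 replicate 2 at the left. The fibroblast list has these libraries at the right, and the leukocyte and endothelial lists have BALB/c replicate 2 farthest left.

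Genes outside all lists were ranked by how closely their profile followed the mean profile of the 8 genes, as the root mean square distance of centred log2 CPM over the 6 libraries. Of 4629 genes whose mean log2 CPM reached 5, the 6 nearest were Klk8, Stap2, Tmem176b, Lad1, Kcnn4 and Epha2, at distances of 0.08, 0.10, 0.14, 0.15, 0.15 and 0.15, where the median over these genes was 1.05. Klk8, which encodes a secreted serine protease, was at 11.3, 65.9 and 49.4 CPM in the BALB/c libraries and at 91.7, 21.1 and 59.8 CPM in the C57BL/6 libraries. Lad1, which encodes the anchoring-filament protein ladinin, was at 62.0, 311 and 243 CPM and at 395, 78.2 and 236 CPM, and Epha2, an ephrin receptor, at 26.7, 159 and 104 CPM and at 270.4, 40.6 and 137 CPM. Among the 8 genes themselves the distance from their mean ran from 0.15 in Krt8 to 0.55 in Epcam, 0.56 in Cdh1 and 0.62 in Elf3. The 6 genes were picked as the nearest of 4629, so their small distances are a description only.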

How the data were processed

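One file deposited by the authors holds raw counts by gene symbol for 6 libraries, 3 BALB/c and 3 C57BL/6. The tools were STAR 2.4.2a, HTSeq and bcl2fastq on mm10, per the submitters' processing notes. Annotation, strand, multiple matches and molecular identifiers are not stated there. Each listed gene reaches at least 6 counts in a library. Each column was assigned by its library name, which the labels give.

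Counts were tested two-sided with edgeR 4.0.16 in R 4.3.3 (filterByExpr, TMM, robust quasi-likelihood, strain as the only term, Benjamini-Hochberg adjustment over 8752 genes, threshold 0.05). DESeq2 1.42.0 was an alternative, and the edgeR test was checked on simulated counts. CPM use TMM-scaled totals, and log2 CPM a prior count of 2. The standard error is the log2 difference divided by the square root of F. GENCODE vM21 gave positions, length and GC for 98.8% of tested genes. BLAST+ 2.17.0 searched the last 500 bases of the longest coding transcript of each of the 8 genes, at 95% identity over 60 bases. The genes, lists, motifs and naming rule (all 8 genes, per list the 2 with the highest mean level where none passed, and the 6 nearest profiles) were chosen with earlier results of these data known. Genes named beyond the rule were chosen after their values were seen.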

Additional observations from a re-analysis of the deposited data

How the results depend on the processing

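None of the 8 genes passed the threshold under any of the 11 alternatives, and the lowest adjusted p was 0.670, in edgeR without C57BL/6 replicate 2. There Elf3 alone of the 8 had an unadjusted p under 0.05 (log2 difference -2.01), as did 598 of all 9078 genes tested in that fit. The number of genes called over the whole table was 11 with library totals alone (5 higher in BALB/c, 6 lower, against 6 and 12), 71 with DESeq2 and 0 with the replicate block. It was 0 to 25 with 1 library left out: 0 without replicate 2 or 3 of BALB/c or replicate 3 of C57BL/6, 4 without BALB/c replicate 1, 5 without C57BL/6 replicate 2 and 25 without C57BL/6 replicate 1. With 1 library left out the median of the 8 genes was -0.9998 to 0.11, positive only without C57BL/6 replicate 1. The sign reversed for Cdh1 with the replicate block (-0.0503). With 1 library left out, the log2 difference ranged from -0.74 to 0.47 for Krt7, -0.92 to 0.17 for Krt8, -1.22 to 0.0131 for Krt19, -0.0559 to 0.95 for Epcam, -0.46 to 0.70 for Cdh1 and -1.10 to 0.25 for Cldn4. Signs turned without C57BL/6 replicate 1 for Krt7, Krt8, Krt19 and Cldn4, without BALB/c replicate 1 for Krt7 (0.16), without BALB/c replicate 2 for Epcam and Cdh1, and without C57BL/6 replicate 2 for Cdh1 (-0.13). Krt18 and Elf3 stayed negative in all 11 alternatives. The cause of these shifts was not tested. Deviations of same-numbered libraries correlated at -0.42, -0.40 and -0.08 across genes, and BALB/c replicate 1 correlated best with C57BL/6 replicate 2, at 0.58. Other differences between the libraries could hide a shared batch, so these values cannot decide whether same-numbered libraries were paired. Depth limits Elf3 most, with as few as 5 counts in a library.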
